A study of Mus musculus with 2 samples.

Results

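The transcripts described here are the mRNAs of 8 mouse splicing regulators of 3 families: Ptbp1, Ptbp2 and Ptbp3 (polypyrimidine tract binding proteins), Celf1 and Celf2 (CELF proteins), and Mbnl1, Mbnl2 and Mbnl3 (muscleblind-like proteins). They were chosen by name, with their counts in these data already known, and compared with the 8439 genes that carried at least 1 exonic site on their own strand. Binding was measured by iCLIP, in which ultraviolet light joins an RNA-binding protein to RNA and each unique cDNA marks the crosslinked nucleotide. The samples were 2 replicates of 1 group: primary splenic B cells of C57BL/6 mice, activated with 10 µg/ml lipopolysaccharide for 48 h, from which cytoplasm was extracted. The titles name Tia1, the antibody entry of the labels names an antibody to its paralog Tial1, and the methods of the study name an antibody to Tia1. The protein is called Tia1 below. No control library was analysed, so background was not measured, and no comparison between conditions could be made. Because mRNA abundance is not part of these data, a low cDNA count cannot be told apart from a low mRNA level.

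Tia1 prefers U-rich RNA. In the nucleus it acts as a splicing activator that binds intronic U-rich sequence just past weak 5′ splice sites, and in the cytoplasm it binds 3′UTRs and enters stress granules. Ptbp proteins bind pyrimidine tracts and usually repress exons: Ptbp1 is broadly expressed, Ptbp2 is the neural form, and Ptbp3 (also called Rod1) is the form known from haematopoietic cells. Celf proteins bind GU-rich RNA, and Celf1 also promotes the decay of mRNAs that carry it. Mbnl proteins bind YGCY elements, Mbnl1 being the broadly expressed form and Mbnl2 prominent in brain. Celf1 and Mbnl1 act in opposite directions on many exons, and their balance is disturbed in myotonic dystrophy.

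The replicates differed 3.87 times in depth: replicate 1 comprised 639108 cDNAs (342732 low-FDR sites) and replicate 2 comprised 165081 (93512 sites). A low-FDR site is a nucleotide whose cDNA count passed the authors' false discovery threshold. A pooled list, called by the authors on both replicates together, held 867271 cDNAs at 422150 sites. It also includes sites that passed in neither replicate alone, so a pooled count can exceed the sum of the replicates. Exonic cDNAs were present for 10 of 10 B cell markers, 3 of 8 myeloid, 2 of 8 T cell and 1 of 6 erythroid markers. All intervals below are exact (Clopper-Pearson) 95% intervals and cover counting error only. The labels do not say whether the replicates came from separate animals, and the study describes independent experiments.

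The sequences that show what Tia1 was crosslinked to come first. Each is 29 nt around the site with the most cDNAs in the densest 3′UTR cluster of its gene (the one with the most cDNAs), read from GRCm38 in transcript direction. A cluster is a run of sites at most 15 nt apart. Capitals mark nucleotides with a pooled low-FDR site.
Ptbp3, chr4:59475847-59475875, minus strand: guAuUUaCUUaaUUUCUUAUUAUGUgcCU
Mbnl1, chr3:60628060-60628088, plus strand: gaaUaUUACUUAUUUUUCUUGuUAAaaug
Celf2, chr2:6542174-6542202, minus strand: uggCuugaUUUCUUUUUUUCCCUUUgcUU
Celf1, chr2:91017392-91017420, plus strand: UUuUgccUUUUUGUUUUgAaUUUUUccUU
Mbnl2, chr14:120430985-120431013, plus strand: uCaUuUCaugaUUUUUaUUUuAaAaaUUa
Ptbp1, chr10:79864165-79864193, plus strand: agaguguaaauaUUUaugaUUUUAUacCU
Mbnl3, chrX:51118043-51118071, minus strand: uuucuaguuagcauUUuuUAguuUUugug
Ptbp2, chr3:119720087-119720115, minus strand: aauUUugcUuuuuuUUuuuuuuCcaacuu
The Celf2 and Celf1 windows hold U tracts broken by short stretches of other bases, whereas the Ptbp3 and Mbnl1 windows mix U runs with A. In the Ptbp2 window only scattered bases of a long U tract carried a site, at 1 or 2 cDNAs each.

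The 8 genes together held 7733 pooled cDNAs (6023 in replicate 1 and 1298 in replicate 2). The Mbnl genes took 40.1% of them, the Ptbp genes 32.3% and the Celf genes 27.7%. The 3′UTRs held 6664 of the 7733 pooled cDNAs (86.2%), and 86.5% and 87.8% in replicates 1 and 2. Over all cDNAs of the series that fell within genes, the share was 82.9% pooled and 83.6% and 87.8% in replicates 1 and 2, so the 8 genes stood above it in replicate 1 but not in replicate 2. All 8 genes had a 3′UTR cDNA in both replicates, against a background of 54.8% of the 8439 genes (59.1% of the 7803 protein-coding ones). With at least 10 cDNAs required in each replicate, 6 of 8 remained (background 29.6%), Ptbp2 and Mbnl3 dropping out. With at least 50, 4 of 8 remained (background 7.65%): Ptbp3, Celf1, Celf2 and Mbnl1. The genes were chosen with these counts known, so the counts describe them and are no evidence about the families.

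Within each family 1 gene carried most of the 3′UTR cDNAs (values per kb follow below). In the Ptbp family this was Ptbp3, with 1642 cDNAs in replicate 1 and 381 in replicate 2, or 244 ± 18.5 per 100000 low-FDR cDNAs (SD, n = 2). Ptbp1 had 102 and 34 cDNAs (18.3 ± 3.28 per 100000). Ptbp2 had 14 and 9 (3.82 ± 2.31 per 100000), and no 3′UTR site of it had more than 1 cDNA in a replicate. The order Ptbp3, Ptbp1, Ptbp2 was the same in both replicates and their intervals did not overlap within a replicate.
Mbnl1 led its family, with 1551 and 359 cDNAs (230 ± 17.8 per 100000). Mbnl2 followed with 226 and 48 (32.2 ± 4.44), and Mbnl3 came last with 44 and 5 (4.96 ± 2.73). Their intervals did not overlap within either replicate.
The Celf pair was closer. Celf2 had 1149 and 246 cDNAs (164 ± 21.8 per 100000), more in both replicates than Celf1, which had 481 and 58 (55.2 ± 28.4 per 100000).

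**Figure D1:**
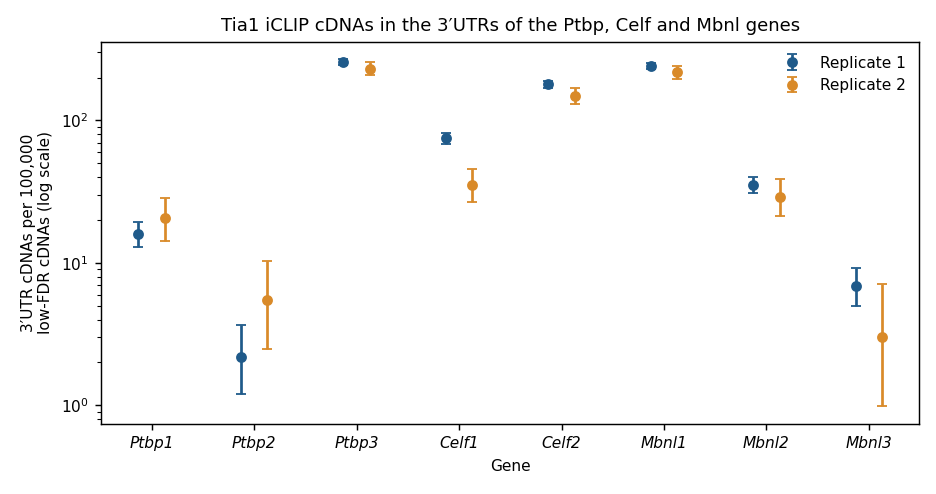
Number of 3′UTR cDNAs per 100000 low-FDR cDNAs (log axis) for each gene, replicate 1 left and replicate 2 right; bars are exact 95% intervals for counting error. Ptbp3, Mbnl1 and Celf2 lie between 149 and 257 in both replicates, whereas Ptbp2 and Mbnl3 lie between 2.19 and 6.88.

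Among the 7292 genes with a 3′UTR cDNA, whose median was 28 pooled cDNAs, Ptbp3 (2100 cDNAs) ranked 12 and Mbnl1 (1970) ranked 13, directly next to each other. Pfn1 (profilin, an actin-binding protein) stood above them with 2321, and Actr2 (a subunit of the actin-nucleating Arp2/3 complex) below with 1922. Celf2 (1421) ranked 28, between Ebf1 (1452), a transcription factor of B cell identity, and Cd38 (1420), a surface enzyme. Celf1 (630) ranked 162, Mbnl2 (295) 545, Ptbp1 (144) 1182, Mbnl3 (70) 2115 and Ptbp2 (34) 3306. The genes beside each of these had the same count: Brd2 and Notch2 for Celf1, Bcl2 and Zbtb33 for Mbnl2, Plekhm3 and Rexo2 for Ptbp1, H2-D1 and Ncbp1 for Mbnl3, and Orai3 and Ralgapa1 for Ptbp2. Among the 8 genes, neighbours in the order of levels per 100000 had intervals that did not overlap in replicate 1, except for Ptbp3 and Mbnl1. In replicate 2 the intervals also overlapped for Celf1 and Mbnl2, for Mbnl2 and Ptbp1, and for Mbnl3 and Ptbp2, whose order was turned round (3.03 per 100000 for Mbnl3 and 5.45 for Ptbp2).

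A long 3′UTR offers more places to bind, so levels were also set per kb of the longest last-exon 3′UTR. On this scale Mbnl1 (3371 nt) had the highest density of the 8, with 68.3 ± 5.29 cDNAs per kb per 100000 low-FDR cDNAs (SD, n = 2), above Ptbp3 (5015 nt) with 48.6 ± 3.68 and Celf2 (7381 nt) with 22.3 ± 2.95. Ptbp1 (1494 nt) reached 12.2 ± 2.19, close to Mbnl2 (2748 nt) with 11.7 ± 1.62 and Celf1 (6132 nt) with 9.0 ± 4.63, and the spread of Celf1 covered the other two values. Ptbp2 (1586 nt) had 2.11 ± 1.87 and Mbnl3 (3738 nt) 1.33 ± 0.729. Ptbp1, which trailed Ptbp3 by 14.6 times in pooled cDNAs, trailed it by 4.80 times per kb in replicate 1 and 3.34 times in replicate 2. The Celf2 to Celf1 ratio per kb was 1.98 and 3.52. Mbnl1 exceeded Mbnl2 by 5.59 and 6.10 times per kb, and Mbnl3 by 39.1 and 79.6 times, the last resting on 5 Mbnl3 cDNAs in replicate 2. The Mbnl3 ratios hold for the GENCODE 3′UTR only. RefSeq models give Mbnl3 a 3′UTR of 7513 nt with 164 and 59 cDNAs, and no ratio was computed over that length.

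The split of low-FDR 3′UTR cDNAs between the replicates differed among the 8 genes. Sites were called in each replicate on its own and at unlike depth, and the part of this in the split was not tested. Over all genes 21.0% of the 3′UTR cDNAs of both replicates came from replicate 2. The share was 10.8% (8.27 to 13.7) for Celf1, 17.6% (15.7 to 19.7) for Celf2, 18.8% (17.2 to 20.6) for Ptbp3 and 18.8% (17.1 to 20.6) for Mbnl1. These 4 of the 6 genes with at least 50 cDNAs had an interval below the share of all genes, which held for 19% of the 2527 genes of that depth. Ptbp1 (25.0%, 18.0 to 33.1) and Mbnl2 (17.5%, 13.2 to 22.5) had intervals that included 21.0%. The Celf1 level of replicate 1, 75.3 per 100000, was above that of replicate 2, 35.1, so its mean has a wide spread. The Celf1 share from replicate 2 also depended on the site rule. It was 4.82% over sites with at least 2 cDNAs in a replicate and 38.5% over sites called in both (13.9% and 33.0% for the 8 genes together).

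Clusters of the 3 most densely bound 3′UTRs were long. In Ptbp3, the densest cluster (chr4:59475637-59476083) spanned 447 nt, began 799 nt past the stop codon, and held 708 cDNAs, 532 in replicate 1 and 173 in replicate 2, or 33.7% of the 3′UTR total. Its highest site had 18 and 5 cDNAs and lies in the Ptbp3 window printed above. The next cluster held 211 cDNAs (175 and 35).
In Mbnl1, the densest cluster (chr3:60628000-60628319) spanned 320 nt, began 1620 nt into the 3′UTR, and held 586 cDNAs (440 and 145), 29.7% of the total. The single highest Mbnl1 site lay in the next cluster (186 cDNAs, 150 and 34), with 18 and 5 cDNAs, the same counts as the top Ptbp3 site. Its window is shown because it holds the Mbnl1 site with the most cDNAs:
Mbnl1 second cluster, chr3:60628532-60628560, plus strand: gaAUaaaAUUUauUUuCUaCuGuaUccaU
A further Mbnl1 cluster with 185 cDNAs (144 and 40) ended 58 nt before the annotated 3′ end.
In Celf2, the densest cluster (chr2:6541974-6542224) spanned 251 nt, began 4861 nt into the 3′UTR, and held 305 cDNAs (251 and 54), 21.5% of the total. The next held 133 (101 and 32).

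The leading clusters took the smallest share in Celf1, where the densest cluster (chr2:91017357-91017436) held 91 cDNAs (72 and 19) and the next 60 (43 and 15), and the top 3 clusters took 33.2% of the 3′UTR cDNAs. That share was 37.5% in Celf2, 40.3% in Mbnl2, 48.6% in Mbnl1, 51.0% in Ptbp3 and 66.0% in Ptbp1. Ptbp1, with 9 clusters against 42 in Ptbp3, had 46 cDNAs (28 and 18) in its densest one, a stretch of 17 nt (chr10:79864177-79864193), and 31 (25 and 6) in the next. In Mbnl2 the densest cluster (chr14:120430975-120431049) held 66 cDNAs (53 and 13), and in the next replicate 2 contributed almost as many as replicate 1 (15 and 14).
For Mbnl3 within GENCODE and for Ptbp2, the clusters held few cDNAs. The densest Mbnl3 cluster within GENCODE held 15 cDNAs (10 and 5), which included every 3′UTR cDNA of replicate 2, and the densest Ptbp2 cluster held 9 (5 and 4).
Clusters with a cDNA of both replicates numbered 30 of 49 in Celf2, 19 of 42 in Ptbp3, 19 of 35 in Mbnl1, 10 of 44 in Celf1, 6 of 25 in Mbnl2, 4 of 9 in Ptbp1, 2 of 6 in Ptbp2 and 1 of 14 in Mbnl3. At single-nucleotide resolution, 187 of the 244 Ptbp3 3′UTR sites of replicate 2 (76.6%) were also sites of replicate 1. So were 16 of 21 in Ptbp1 (76.2%), 161 of 229 in Mbnl1 (70.3%), 35 of 52 in Celf1 (67.3%) and 116 of 201 in Celf2 (57.7%). In Mbnl2 18 of 40 were (45.0%), in Mbnl3 1 of 3 and in Ptbp2 1 of 9. Over sites of all regions in the series, 58002 of the 92303 replicate 2 sites placed on mm10 were.

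The position of the signal along the 3′UTR differed between genes. Ptbp3 was bound early: 30.3% and 22.8% of its cDNAs in replicates 1 and 2 lay beyond the midpoint of the 3′UTR. Celf1 was bound late, with 73.2% and 79.3% beyond it, and so were Mbnl2 (68.6% and 72.9%) and Mbnl1 (64.3% and 73.3%). Celf2 was near even (47.3% and 53.3%), but no site lay in the last 2189 nt of its annotated 3′UTR. Ptbp1 (34.3% and 52.9%) had no site in its last 418 nt.
Where several transcript ends are annotated, cDNAs past the nearest one can come only from longer transcripts. They made up 97.4% of the pooled 3′UTR cDNAs in Ptbp3, 93.8% in Mbnl1 and 92.9% in Mbnl2, where the nearest end lay 235, 416 and 677 nt past the stop codon. Most of the 3′UTR length also lay past that end: 95.3%, 87.7% and 75.4%. In Celf1 and Celf2 the nearest end lay 37 and 44 nt past the stop codon, with 100% and 99.0% of cDNAs and 99.4% of the length past it in both. In Mbnl3, 75.7% of cDNAs and 86.1% of the length lay past it. In Ptbp1 the nearest end lay 1082 nt past the stop codon, and no cDNA lay in the 27.6% of the length past that end.

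**Figure D2:**
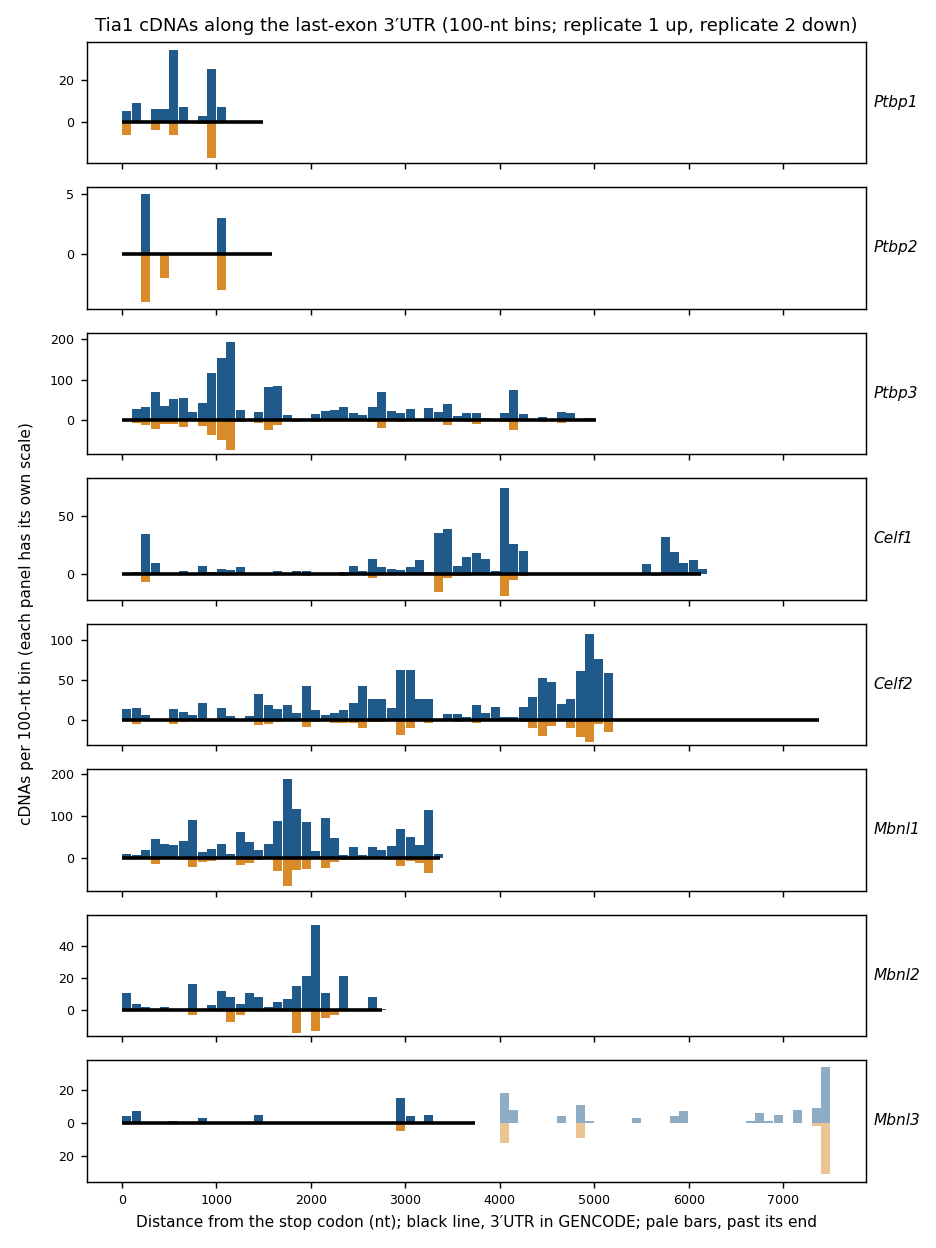
Number of cDNAs in 100-nt bins along the last-exon 3′UTR of each gene, by distance from the stop codon in nt, replicate 1 upwards and replicate 2 downwards on a scale of its own per gene. The black line is the 3′UTR in GENCODE; Ptbp3 peaks near 1100 nt, Mbnl1 near 1700 nt, Celf1 near 4000 nt and Celf2 near 4900 nt, and pale Mbnl3 bars lie past the GENCODE end.

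Sites were richer in U than the 3′UTR around them in all 8 genes and in both replicates. Over last-exon sites, the 29 nt around Ptbp2 sites held 61.2% U in replicate 1 and 57.9% in replicate 2 (8 and 9 sites), against 38.4% in the whole 3′UTR. Celf1 sites held 47.3% and 58.2%, against 31.2%. Mbnl1 sites held 41.3% and 45.4%, against 34.2%, and Ptbp3 sites 43.0% and 49.6%, against 36.1%, so the most densely bound 3′UTRs were not those with the most U-rich sites. Ptbp1 sites held 34.4% and 40.4%, against 26.4%.
Over pooled 3′UTR sites, the Ptbp1 mean of 34.5% was above that of only 2.10% of the 2764 genes with at least 30 sites, and the Ptbp2 mean of 57.5% was above that of 97.8% of them, around a gene median of 45.6%. The run UUUUU (searched in transcript direction in each window) was found in 21.5% of Ptbp1, 23.8% of Mbnl1, 32.1% of Ptbp3, 34.6% of Celf2, 38.1% of Celf1 and 64.5% of Ptbp2 windows, against 37.6% of all 3′UTR site windows in the series. The crosslinked base was U at 64.3% of Mbnl1 and 65.1% of Ptbp3 sites, against 73.9% of all 3′UTR sites. Ultraviolet crosslinking favours U, and its part in these values was not tested.

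**Figure D3:**
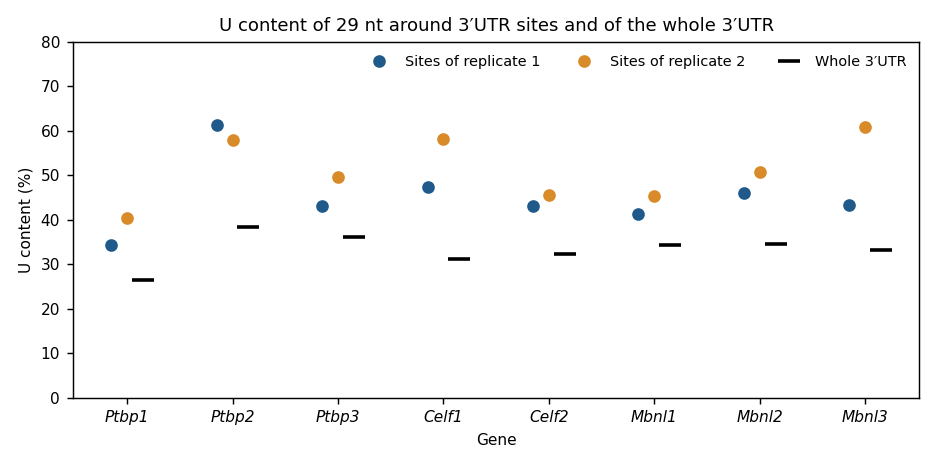
U content in percent of the 29 nt around last-exon 3′UTR sites of replicate 1 and replicate 2 (points, means over sites) and of the whole 3′UTR (black dashes). Both points lie above the dash in every gene, and the Ptbp1 and Ptbp2 points of replicate 1, at 34.4% and 61.2%, are the lowest and the highest of that replicate.

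With CDS counted before UTRs, Mbnl1 was the one gene of the 8 with 5′UTR cDNAs in both replicates (background 1.87% of genes, or 2.02% of protein-coding ones). With UTRs first Celf2 joined it (15 and 3 cDNAs), and RefSeq models placed 22 and 1 Mbnl3 cDNAs in a 5′UTR. Mbnl1 had 300 5′UTR cDNAs in replicate 1 and 117 in replicate 2. These made 14.5% (13.1 to 16.1) and 23.4% (19.8 to 27.4) of its cDNAs, a mean of 19.0% ± 6.26 (SD, n = 2). The other 7 genes had 5 pooled 5′UTR cDNAs among them (3 in Mbnl2 and 2 in Ptbp3), and 23 with UTRs first, 18 of them in Celf2. By pooled 5′UTR cDNAs Mbnl1 (428) ranked 5 among the 714 genes with any, next above Tubb5 (316), a tubulin, and it ranked 4 in each replicate. Of the 1930 genes with at least 100 cDNAs, 43 had a higher 5′UTR share, and the median share was 0. These values entered the choice of Mbnl1 and are given as a description.

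The signal lay in 1 exon. Of the 428 cDNAs, 422 fell in the 875 nt of 5′UTR in the exon that carries the start codon (chr3:60528756-60529630), and 246 (161 and 85) in the last 100 nt before the AUG. The exon runs on into the coding sequence, and its regulation by Mbnl1 protein is a known autoregulatory loop of this gene. The densest cluster (chr3:60529553-60529630) spanned 78 nt up to the start codon and held 244 cDNAs (160 and 84), 57.0% of the 5′UTR total. At its 5′ side lies an uninterrupted run of 25 U (chr3:60529548-60529572) that ends 59 nt before the AUG. This run alone held 166 cDNAs, 98 in replicate 1 and 68 in replicate 2, or 32.7% and 58.1% of the 5′UTR cDNAs. The window around the top site and the 30 nt that end with the start codon are shown because they hold the peak and its border with the coding sequence:
Mbnl1 5′UTR peak, chr3:60529553-60529581, plus strand: UUUUUUUUUUUUUUUUUUUUGGaGAGgGG
Mbnl1 start codon, chr3:60529604-60529633, plus strand: aCAUUUaacUaccUgUaaaAuAuaaaCaug
Every U shown of the run was a site, as were most of the G bases that follow it, whereas the start codon itself held none. The top site, 64 nt before the AUG, had 18 cDNAs in replicate 1 and 1 in replicate 2, while the neighbouring position 60 nt before it had 10 and 7. The sources used here do not say how reads were placed within a homopolymer, and single positions inside the run are less certain than its sum. A second cluster (chr3:60529250-60529533) held 126 cDNAs (91 and 33), and its top window has at most 2 U in a row.

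Replicate 2 gave 28.1% (23.8 to 32.6) of the Mbnl1 5′UTR cDNAs of both replicates, above the 18.8% (17.1 to 20.6) it gave of the Mbnl1 3′UTR cDNAs. Over all genes it gave 20.1% of the 5′UTR cDNAs. Without the U run the rest of the Mbnl1 5′UTR held 202 cDNAs in replicate 1 and 49 in replicate 2. The U content around Mbnl1 5′UTR sites averaged 45.4% over sites (SD 20.8), and 56.1% when weighted by cDNAs, against 35.1% in the 875 nt and 45.2% over all 5′UTR sites in the series.

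**Figure D4:**
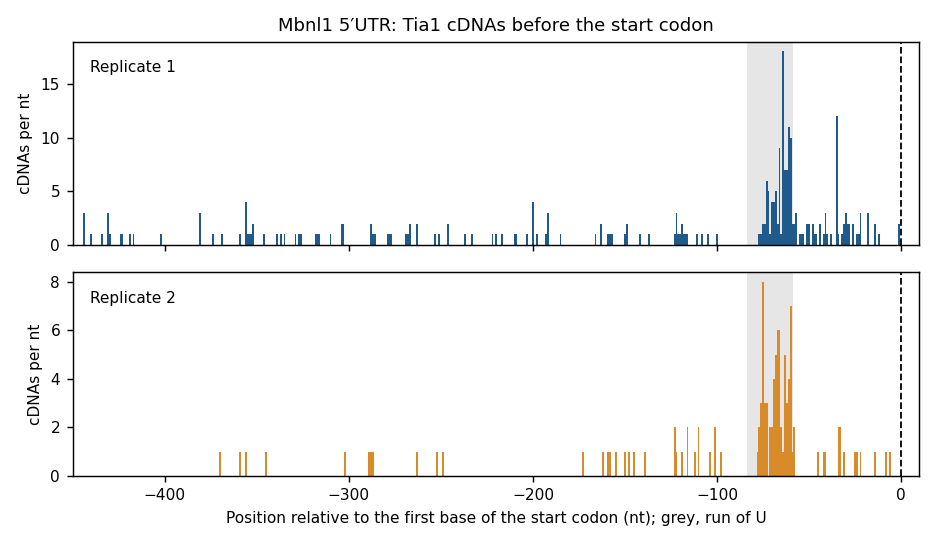
Number of cDNAs per nucleotide in the Mbnl1 5′UTR by position relative to the start codon in nt (dashed line at 0), replicate 1 above and replicate 2 below; the grey band is the run of 25 U. In both replicates the highest column lies inside that band, which holds 98 and 68 cDNAs; in replicate 1 the next highest, with 12 cDNAs, lies outside it, 35 nt before the start codon.

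Coding sequence carried little signal, 297 of the 7733 pooled cDNAs. Ptbp3, Celf2 and Mbnl1 were the 3 of 8 genes with CDS cDNAs in both replicates (background 8.77%). Ptbp3 had 116 in replicate 1 and 6 in replicate 2, with the densest cluster at chr4:59514314-59514396 (38 and 3). The exon holding it is coding in some transcripts and 3′UTR in a transcript subject to nonsense-mediated decay, and counting UTRs before CDS left 33 of the 132 pooled Ptbp3 cDNAs in the CDS. Celf2 had 38 and 3, which became 16 and 0 with UTRs first, so that its signal in both replicates was lost. Mbnl1 had 63 and 5. The Mbnl1 cDNAs were spread over 9 clusters of at most 13 pooled cDNAs.

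**Figure D5:**
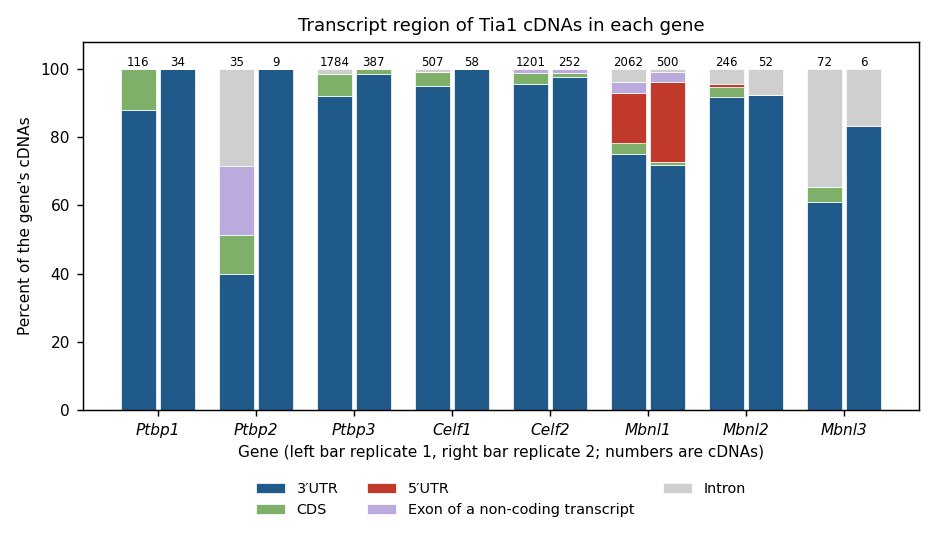
Percent of each gene's cDNAs by transcript region, replicate 1 in the left bar and replicate 2 in the right, with the number of cDNAs above the bar. The 5′UTR segment is wide in Mbnl1 alone (14.5% and 23.4%); the Ptbp2 and Mbnl3 bars of replicate 2 rest on 9 and 6 cDNAs.

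Sites outside the CDS and UTRs came from cytoplasmic extracts too, and the 8 genes had 339 pooled cDNAs in introns or exons of non-coding transcripts. Intron cDNAs were seen in both replicates for 3 of 8 genes (background 4.29%): Mbnl1 (78 and 4), Mbnl2 (11 and 4) and Mbnl3 (25 and 1). This set depended on the gene model. With RefSeq models Mbnl2 (4 and 0) and Mbnl3 (3 and 0) had none in replicate 2, whereas Celf2 had 10 and 3. Of the 339 cDNAs, 104 (30.7%) lay within 50 nt past a 5′ splice site of a coding transcript, against 22.9% of such cDNAs over all genes. The share was 26.7% in replicate 1 (22.9% over all genes) and 63.0% in replicate 2 (24.2%), where it rested on 17 of 27 cDNAs. Mbnl1 contributed 76 of the 104.
The densest of these groups lay 18 to 48 nt past a 95-nt first exon of Mbnl1, with 41 cDNAs, 28 in replicate 1 and 13 in replicate 2. GENCODE places it in a retained-intron transcript. A smaller group of 10 (8 and 0) began 13 nt past the exon that holds the start codon.
Mbnl1 and Mbnl2 shared a pattern at an exon of the same length. In Mbnl1, 17 cDNAs (15 and 0) lay 13 to 30 nt past a 36-nt exon (chr3:60621423-60621458), and in Mbnl2, 8 cDNAs (4 and 4) lay 15 to 29 nt past a 36-nt exon (chr14:120403336-120403371). The sequences past these exons are shown side by side, with the splice site at or just before the left end:
Mbnl1 past the 36-nt exon, chr3:60621462-60621490, plus strand: ggugccagcUUUguUUcuugAUuauCUua
Mbnl2 past the 36-nt exon, chr14:120403372-120403400, plus strand: guagguuccaaccuUuUUuuaUuugucuU
In both, the crosslinked bases are mostly U in the pyrimidine-rich stretch and not in the splice site itself. The Mbnl1 group was absent from replicate 2 and each rests on few cDNAs.
Ptbp2 and Ptbp3 each had 7 pooled cDNAs past 1 exon (15 to 45 and 24 to 39 nt), with 0 and 5 of them in replicate 1 and none in replicate 2. None of the 8 genes had a cDNA on the antisense strand.

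For Mbnl3 the count depended on the gene model. The GENCODE gene ends at position 51117269 of the X chromosome, and the RefSeq gene runs on to 51113494. In the 3775 nt between these ends lay 185 pooled cDNAs at 120 sites, 120 in replicate 1 and 54 in replicate 2, more than the 70 (44 and 5) inside the GENCODE 3′UTR. The other 7 genes had no cDNA within 5000 nt past their GENCODE end. With this stretch Mbnl3 would hold 255 3′UTR cDNAs (164 and 59), which would rank 646 in place of 2115. It would stand below Mbnl2 in the pooled list (295) and in replicate 1 (226), but above it in replicate 2 (48). The densest cluster (chrX:51113522-51113559) held 60 cDNAs, 30 in each replicate, and ended 28 nt before the RefSeq end. Its window is shown because it was the strongest Mbnl3 signal found:
Mbnl3 distal cluster, chrX:51113515-51113543, minus strand: UaUgUUUCcUUUUUUUaUUcUUucaauaa
Sites in the stretch averaged 51.8% U, against 31.8% over its whole length. Replicate 2 gave 31.0% (24.3 to 38.5) of these cDNAs and 10.2% (3.40 to 22.2) of those in the GENCODE 3′UTR. In an intron, 25 Mbnl3 cDNAs (22 and 1) lay in a U tract (chrX:51204776-51204800) that RefSeq models place in a 5′UTR exon.

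The Ptbp2 count also depended on the model: 11 of its 34 pooled 3′UTR cDNAs lay in the 3′UTR of an alternative transcript that ends inside an intron of the longer one, and 23 (8 and 9) lay in the last exon. A further 14 cDNAs within the Ptbp2 body fell in 2 overlapping genes and were not counted to it.

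Among 28 other regulators of alternative splicing, 10 had exonic cDNAs and 9 had 3′UTR cDNAs in both replicates. Rbm39, a splicing factor, had 404 and 98 3′UTR cDNAs in replicates 1 and 2 (517 pooled). Khdrbs1 (Sam68), an RNA-binding protein of signalling and splicing, had 348 and 127 (483 pooled). Qki, named Qk in GENCODE, a regulator of myelin mRNAs and splicing, had 346 and 79 (450 pooled). No pooled cDNA fell in 14 genes of the list: Celf3, Celf5, Celf6, Nova1, Nova2, Esrp1, Esrp2, Khdrbs2, Khdrbs3, Rbm10, Rbm24, Raver1, Raver2 and Srrm4. Several of these (Celf3, Nova1, Nova2, Srrm4) are neural and Esrp1 and Esrp2 epithelial. Of the CELF family Celf1 and Celf2 had exonic cDNAs, whereas Celf4 had 10 pooled cDNAs, all outside exons.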

How the data were processed

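Tia1 iCLIP was analysed in both samples. Values deposited by the authors are signed counts of unique cDNAs per crosslinked nucleotide, the sign marking the strand. The authors processed reads with iCount and Bowtie (versions not given in the sources used here), collapsed PCR duplicates by random barcode, mapped to mm9, and kept sites at a false discovery rate under 0.05 (100 permutations, 15-nt neighbourhood). They lifted the pooled list to mm10, and its rows were paired here with those of the pooled mm9 list. Replicate counts were joined by mm9 position and strand, which placed 98.9% and 99.1% of the cDNAs. UV dose and RNase amount differ between labels and methods.

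Sites were annotated by strand with GENCODE M21 with CDS taking precedence over 3′UTR, 5′UTR, exons of non-coding transcripts and introns. Sites shared by genes were left out. Replicates were scaled per 100000 low-FDR cDNAs. No test was run, since counts chose the genes. Region assignment was checked by direct look-up in the same annotation. The clustering and interval rules were checked on simulated data with separate code, so the analysis code for these was not itself tested. Named genes were the 8 members, those next in rank (1 of which is not reported here), and a list of 28 splicing regulators. Members and lists were chosen with earlier results of these data known. Alternatives varied annotation order, transcripts, site minimum, window and join distance. RefSeq models were added after the data were seen. Analysis used Python 3.11.15, pandas 2.3.3, scipy 1.17.1, pysam 0.24.0 and bedtools 2.31.1.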

Additional observations from a re-analysis of the deposited data

Results flagged for a closer look

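Mbnl3 had 185 pooled cDNAs between its GENCODE and RefSeq ends, in sequence that the counts by gene do not use.

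The authors' map of all crosslinked positions, made from both replicates together, also holds cDNAs that missed the false discovery threshold. Between the outermost low-FDR sites of the last-exon 3′UTR there were 167 of these in Celf1, 106 in Ptbp3, 58 in Mbnl3, 50 in Celf2, 39 in Mbnl2, 26 in Mbnl1, 24 in Ptbp1 and 10 in Ptbp2, and there were 4 in the Mbnl1 5′UTR. The share of cDNAs that passed was 54.7% in Mbnl3, 69.7% in Ptbp2 and 79.0% in Celf1, against 98.7% in the Mbnl1 3′UTR and 99.1% in its 5′UTR. Over the whole series, not limited to spans between low-FDR sites, 54.8% passed. Replicates could not be told apart in this map.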

How the results depend on the processing

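No paired analysis was possible because the series holds 1 group. The 3′UTR level of the 8 genes together, 753 per 100000 low-FDR cDNAs, stayed within the spread between replicates under all 5 alternatives that kept both (678 to 777), and was 691 and 815 in the single replicates. The 3′UTR share, a mean of 87.2%, was 88.1% with UTRs placed before CDS and 89.4% over sites called in both replicates (86.5% and 87.8% in single replicates). The Mbnl1 5′UTR share of 19.0% ranged from 14.5% to 23.4% in single replicates. Of the 8 genes bound in both replicates, 4 were left at 50 cDNAs in each. The share of 3′UTR cDNAs from replicate 2 was 18.0%, 13.9% over sites with at least 2 cDNAs and 33.0% over sites called in both. Joining sites within 30 nt gave 136 clusters in place of 224. Over single genes, 37 of 115 values moved beyond their limit. For levels, region shares and U content the limit was the spread between replicates. For shares from replicate 2 it was the exact interval, and for cluster counts a fixed fold change. With at least 2 cDNAs per site in a replicate, the 3′UTR level per 100000 was 0 for Ptbp2 (3.82 over all sites), 18.8 for Mbnl2 (32.2) and 34.9 for Celf1 (55.2). Over sites called in both replicates it was 0.62 for Ptbp2, 0.62 for Mbnl3 (4.96), 16.04 for Mbnl2 and 30.1 for Celf1. The Mbnl3 level was 30.7 with RefSeq models. The order Ptbp3, Mbnl1, Celf2, Celf1 held under every alternative run. Over shared sites Ptbp1 stood above Mbnl2, and Ptbp2 and Mbnl3 were level. In replicate 2 alone Ptbp2 stood above Mbnl3, and with RefSeq models Mbnl3 stood above Ptbp1. Low counts limit Ptbp2 and Mbnl3, with 9 and 5 3′UTR cDNAs in replicate 2. For Mbnl3 this holds for the GENCODE model, since RefSeq models gave 59.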
